A study of Mus musculus with 6 samples.

Results

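The Ms4a genes encode a family of small tetraspan membrane proteins, and 7 of them that are known from macrophages and other leukocytes were looked up by symbol among the 23946 genes of an RNA-seq table: Ms4a4a, Ms4a4b, Ms4a4c, Ms4a6b, Ms4a6c, Ms4a6d and Ms4a7. Of the 7, 6 had a value in every library, and Ms4a4a, which had no row under its symbol or its synonym, was not analysed here. All 6 had an FPKM (fragments scaled by transcript length and by sequencing depth) of at least 1 in every library, as had 13064 genes in at least 1 library. The RNA came from CD45+CD11b+F4/80+ cells sorted from the omentum, written OM, and from mesenteric adipose tissue, written MY, of young female C57BL/6 mice, either naive (0h) or 24 h or 7 d after intraperitoneal injection of ID8 cells, a mouse ovarian carcinoma line. The omentum is a fold of peritoneal fat and a common site of ovarian cancer spread, and the mesentery served as a fat tissue for comparison. The 9 mice were processed as groups of 3, and each of the 6 conditions had 1 library. There was no replicate, no spread and no test, and every difference below is a difference between pooled libraries.

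Proteins of the MS4A family cross the membrane several times and sit beside receptors in the plasma membrane and in endosomes, where several of them tune receptor signalling. Ms4a1 encodes CD20 of B cells and Ms4a2 the beta chain of the high-affinity IgE receptor of mast cells. Ms4a4b is known from T and NK cells, whereas Ms4a6d and Ms4a7 are known from macrophages, Ms4a7 marking border-associated and other tissue macrophages and Ms4a4c and Ms4a6c being frequent in monocytes.

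The 6 genes lay together on mouse chromosome 19 (NCBI37/mm9, GENCODE M1), between positions 11395529 and 11679339, inside a family cluster of 20 annotated genes that spanned 678555 bases. In order along the chromosome, Ms4a7 lay on the minus strand at 11395529 to 11410636. Next to it came Ms4a4c at 11479260 to 11501736, Ms4a4b at 11518043 to 11538039, Ms4a6c at 11543858 to 11556687 and Ms4a6b at 11591002 to 11605746, all on the plus strand. Ms4a6d lay on the minus strand at 11661094 to 11679339. The longest annotated transcript had 7 exons in each of them except Ms4a6b, which had 6, and no other annotated gene overlapped any of the 6.

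The bases just upstream of the RefSeq transcript starts are shown because neighbouring genes of this cluster differed in their profiles while their start regions held the same short motif. A RefSeq window of 250 bases (GRCm38.p6) was found for 5 of the 6 genes, not for Ms4a6d, and each matched mm9 exactly once. The sequences run 5′ to 3′ on the gene's own strand, and the capitals mark the ETS core GGAAGT, or ACTTCC where it lay on the opposite strand. The Ms4a4b stretch lay at chr19:11517798-11518042 (plus strand) and stopped at the annotated exon, the Ms4a4c stretch at chr19:11481901-11482150 (plus), inside the gene annotated on mm9 but in no exon, the Ms4a6c stretch at chr19:11543608-11543857 (plus) and the Ms4a7 stretch at chr19:11410637-11410886 (minus).
Ms4a4b: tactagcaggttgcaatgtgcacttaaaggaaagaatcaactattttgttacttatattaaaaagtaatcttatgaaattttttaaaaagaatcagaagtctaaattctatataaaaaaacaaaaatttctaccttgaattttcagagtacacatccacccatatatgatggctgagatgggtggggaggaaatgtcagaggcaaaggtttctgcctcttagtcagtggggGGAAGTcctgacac
Ms4a4c: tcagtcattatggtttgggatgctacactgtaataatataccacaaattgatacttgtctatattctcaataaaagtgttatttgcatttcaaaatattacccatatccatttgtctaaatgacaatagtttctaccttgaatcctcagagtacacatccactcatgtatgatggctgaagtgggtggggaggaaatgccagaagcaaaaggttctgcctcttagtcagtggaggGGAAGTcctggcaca
Ms4a6c: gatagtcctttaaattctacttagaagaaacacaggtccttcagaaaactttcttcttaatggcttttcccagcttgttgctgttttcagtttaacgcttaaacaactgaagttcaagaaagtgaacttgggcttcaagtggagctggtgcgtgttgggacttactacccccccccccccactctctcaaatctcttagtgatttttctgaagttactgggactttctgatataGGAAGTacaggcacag
Ms4a7: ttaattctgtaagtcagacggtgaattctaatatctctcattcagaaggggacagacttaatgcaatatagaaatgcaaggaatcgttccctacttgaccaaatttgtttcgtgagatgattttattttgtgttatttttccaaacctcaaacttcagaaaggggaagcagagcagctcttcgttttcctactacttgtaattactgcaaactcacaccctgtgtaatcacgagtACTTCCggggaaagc
The Ms4a6b window reached into annotated exons and is not printed. The ETS core, searched on both strands, was present in the windows of 5 of the 5 genes, against 19.8% of 32536 RefSeq windows of that length. It began 19 bases before the start in Ms4a4b, 15 in Ms4a4c, 16 in Ms4a6c and 15 in Ms4a7. In Ms4a6b it began 85 and 43 bases before the start, both within the 106 bases of that window that lay in annotated exons. The 5 windows were not independent. The Ms4a6c core and the first Ms4a6b core lay in the same run of 48 identical bases, and the Ms4a4b and Ms4a4c windows were 68.8% identical. The count of 5 is thus no measure of an excess over the share of all windows. A core starting 10 to 25 bases upstream, a range chosen after these positions were seen, was found in 2.24% of all windows. ETS factors such as PU.1 of myeloid cells bind sequences around this core, but the letters do not show that a factor was bound. The interferon response element (GAAA repeated after any 2 bases), the gamma-activated site TTCNNNGAA and the AP-1 site TGANTCA were each in 0 of the 5 windows. They were in 2.98%, 7.04% and 6.73% of all windows. With shares this low most sets of 5 windows hold no match, so the counts of 0 show no lack of these sites.

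All of the 3 sort markers were present in every library. Ptprc, which encodes CD45, ranged from 105.8 to 208.3 FPKM, Itgam (CD11b) from 27.8 to 150.9 and Emr1 (F4/80) from 20.5 to 135.0. Genes of other cell types were present too, with the lowest T and NK cell sums in OM 24h. The 8 T cell markers summed to 493.8, 75.7 and 350.8 FPKM in OM 0h, 24h and 7d and to 1191, 661.5 and 1311 in MY, and the 7 NK cell markers summed to 428.9, 19.8 and 235.8 in OM and 2578, 1568 and 1200 in MY. None of these 15 genes was at 0 in any library. The 7 macrophage markers, among them Csf1r and the C1q genes, summed to 2093, 12702 and 1199 FPKM in OM and 1296, 3245 and 1506 in MY. The 5 neutrophil markers summed to 5828, 13573 and 14516 FPKM in OM and 614.1, 656.8 and 227.9 in MY. In OM most of these sums was S100a8 and S100a9, at 8381 and 5621 FPKM in OM 7d. The other markers differed less between OM 7d and MY 7d, with Retnlg at 500.8 and 163.1, Csf3r at 9.36 and 6.46 and Cxcr2 at 3.43 and 4.20. The 5 fibroblast markers summed to 343.3, 221.2 and 1186 in OM against 2.02, 3.10 and 2.26 in MY. The 5 mesothelial markers, among them Msln and Wt1, summed to 63.4, 728.1 and 747.3 FPKM in OM and 0.138, 0.0830 and 0.428 in MY, and 5 of 5 had risen at least 2-fold from OM 0h by 24h and by 7d. The part of these cells in the Ms4a values was not tested. In such bulk samples fewer cells of a type and less RNA per cell cannot be told apart.

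Ms4a4b encodes a family member known to modulate T cell activation. It measured 72.6, 7.60 and 45.8 FPKM in OM 0h, 24h and 7d, against 431, 230.1 and 343 in MY. Every omental library was below every mesenteric one, and OM 24h was the lowest of the 6. The omental value was 5.93-fold lower than the mesenteric one at 0h, a log2 difference of -2.55 on the log2(FPKM + 1) scale that is used for all differences here. It was lower by 4.75 on that scale at 24h and by 2.88 at 7d. Within the omentum Ms4a4b fell 9.55-fold by 24h, a log2 change of -3.10 that was the 34th lowest of the 13064 genes, and rose again by 2.44 from 24h to 7d. The 8 T cell and 7 NK cell markers were set beside it. In OM 24h against OM 0h, 7 of 8 and 7 of 7 were at least 2-fold lower, with medians of -2.19 and -3.85 on the log2 scale. All 6 B cell markers (median -2.01) and 5 of 6 mast cell markers (median -2.48) were lower there as well. In OM 0h against MY 0h, 7 of 8 and 7 of 7 were lower, with medians of -2.36 and -2.39, while Cd2 was higher by 0.80. The NK cell markers did not follow Ms4a4b in the mesentery at 7d. Against MY 0h, 6 of 7 were at least 2-fold lower in MY 7d (median -1.28), where Ms4a4b was at -0.33. Of all 6 Ms4a genes it was the one with the widest range, and the ratio of Ms4a4b to Lck, the T cell kinase, stayed between 1.12 and 1.73 while Ms4a4b itself spanned 56.7-fold. Its ratio to Cd3e of the T cell receptor complex lay between 1.34 and 2.59, and to Nkg7 of cytotoxic lymphocytes between 0.333 and 0.597. Ratios to the other listed T and NK cell markers were not computed. Lck was also the gene with the profile most similar to Ms4a4b in these libraries (below), so its steady ratio is no separate result. The part of these lymphocyte genes in the Ms4a4b values was not tested.

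**Figure D1:**
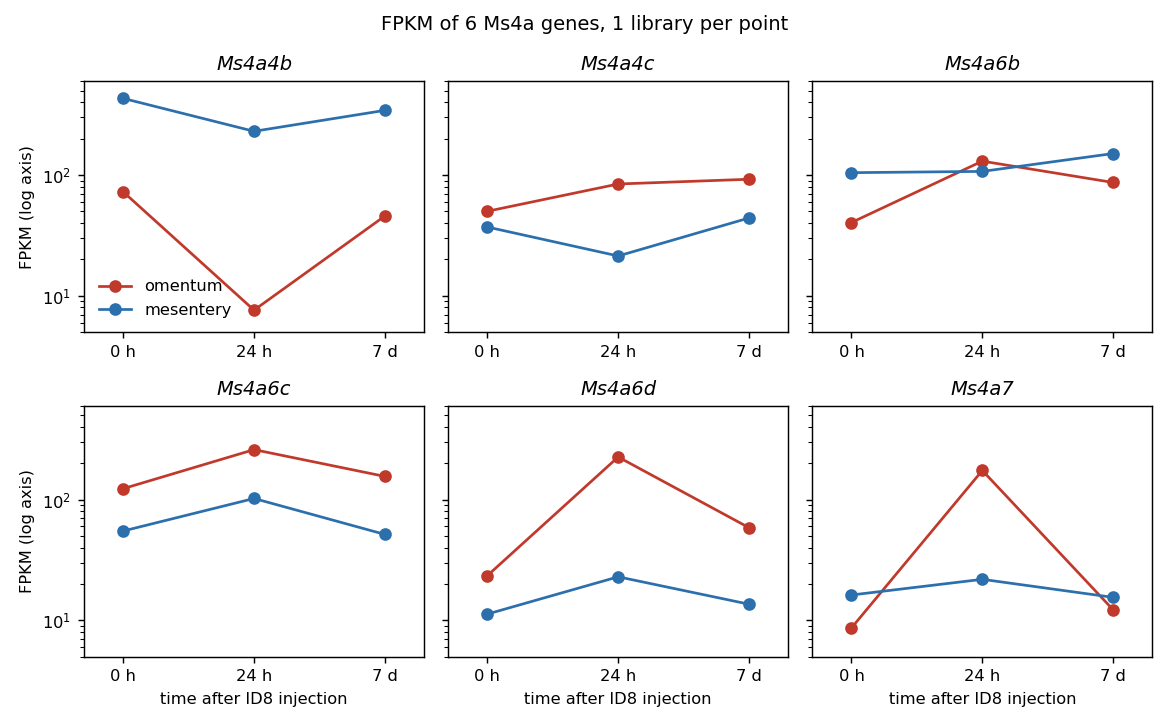
FPKM (log axis) of the 6 Ms4a genes against time after ID8 injection, with omentum in red, mesentery in blue and 1 library per point. Ms4a4b dropped to 7.60 FPKM in OM 24h, where Ms4a6d reached 225.6 and Ms4a7 174.5.

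Ms4a4c, the closest paralog of Ms4a4b, had a different profile. It measured 50.1, 84.3 and 92.3 FPKM in OM 0h, 24h and 7d, and 37.1, 21.4 and 44.1 in MY. The omental libraries all lay above the mesenteric ones, although OM 0h exceeded MY 7d by only 5.99 FPKM. The tissues differed by 0.42 at 0h, 1.93 at 24h and 1.05 at 7d on the log2 scale, so the omental value was at least 2-fold higher at 24h and 7d. Over time it stayed under 2-fold in the omentum, at 0.74 by 24h and 0.87 by 7d, and in the mesentery it was at -0.77 by 24h before it rose by 1.01 from 24h to 7d. Among Ly6c-high monocyte genes, Ms4a4c kept a ratio to Ly6c2, the gene of the Ly6C monocyte antigen, between 0.201 and 0.349.

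Ms4a6c encodes another member that is frequent in monocytes. Its FPKM were 123.3, 259.6 and 155.7 in OM 0h, 24h and 7d, and 55.0, 102.3 and 51.5 in MY. All omental values were above all mesenteric ones, by 21.0 FPKM at the closest, and 24h was the highest time in both tissues. The tissue difference was at least 2-fold at each time, with log2 values of 1.15, 1.34 and 1.58. With each library scaled to a sum of 1000000 the difference at 0h was 0.92, under 2-fold. Ms4a6c rose by 1.07 in OM 24h and stood at 0.88 in MY 24h, and by 7d it was at 0.33 and -0.09 relative to 0h.

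Ms4a6d and Ms4a7 had their highest values in OM 24h. Ms4a6d, a member that associates with the complement receptor VSIG4, measured 23.5, 225.6 and 58.6 FPKM in OM 0h, 24h and 7d and 11.3, 23.0 and 13.6 in MY. The omental values lay above the mesenteric ones, but OM 0h exceeded MY 24h by only 0.492 FPKM. Within the omentum it rose 9.61-fold by 24h, a log2 change of 3.21 that ranked 94th of the 13064 genes, and was still higher by 1.28 at 7d. In the mesentery it was at 0.96 by 24h and 0.25 by 7d. The plain FPKM ratio at 24h was 2.04, so Ms4a6d passed 2-fold there without the pseudocount of 1 and not with it. OM exceeded MY by 0.99 at 0h, 3.24 at 24h and 2.03 at 7d.

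Ms4a7 measured 8.67, 174.5 and 12.2 FPKM in OM 0h, 24h and 7d and 16.2, 21.9 and 15.5 in MY. The OM 24h library was far above the others, while OM 0h and OM 7d were below all 3 mesenteric libraries. The 20.1-fold rise in OM 24h, a log2 change of 4.18, was the largest among the 6 Ms4a genes and ranked 39th of the 13064 genes, and the fall from 24h to 7d, by 3.73 on the log2 scale, was the 11th lowest. The difference between tissues was -0.83 at 0h, 2.94 at 24h and -0.32 at 7d. In the mesentery no time differed from 0h by 2-fold, with log2 values of 0.41 and -0.06.

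Ms4a6b, a member also known from T cells, measured 40.4, 130.3 and 86.7 FPKM in OM 0h, 24h and 7d and 104.6, 107.1 and 150.6 in MY. The tissues overlapped. The OM 0h library was lower than MY 0h by 1.35 on the log2 scale, at 24h the difference was 0.28 and at 7d -0.79. In the omentum Ms4a6b rose by 1.66 by 24h and was higher by 1.08 at 7d, while in the mesentery it was at 0.03 and 0.52.

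The genes past 2-fold on the log2(FPKM + 1) scale, a difference of at least 1, were counted in the 9 pairs of libraries, which share libraries with each other. In OM 24h against OM 0h, 4 of 6 were at least 2-fold higher (Ms4a6b, Ms4a6c, Ms4a6d and Ms4a7) and 1 lower (Ms4a4b), against 11.9% and 6.45% of all expressed genes, and the median of the 6 was 1.37 against 0.00 for all genes. At 7d against 0h 2 of 6 were higher (Ms4a6b and Ms4a6d) and 0 lower, with backgrounds of 11.0% and 1.96%, 12.9% in either direction, and a median of 0.66. From 24h to 7d 1 of 6 was higher (Ms4a4b) and 2 lower (Ms4a6d and Ms4a7), where 7.03% and 4.52% of genes were. In the mesentery 0 of 6 differed by 2-fold at 24h on that scale, where Ms4a6d was just short of it, with backgrounds of 2.80% higher, 1.52% lower and 4.32% in either direction. At 7d it was again 0 of 6, with 0.498%, 2.29% and 2.79%, while from 24h to 7d 1 of 6, Ms4a4c, was higher where 1.84% of genes were and 5.37% differed in either direction. Between the tissues, 1 was higher in the omentum and 2 lower at 0h (backgrounds of 8.18% and 8.05%), 4 and 1 at 24h (13.9% and 10.2%) and 3 and 1 at 7d (14.1% and 4.99%). Over all times 4 of the 6 genes did not overlap between the tissues, 3 with the omentum above and 1 with it below, while 34.4% of all genes did not overlap, 16.7% above and 17.7% below. Without the 24h libraries of both tissues all 6 genes were apart, but so were 51.1% of all genes, and with each library scaled to a sum of 1000000 the count was 3 (Ms4a4b, Ms4a6b and Ms4a6c) against 37.5%. No count was tested against its background.

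**Figure D2:**
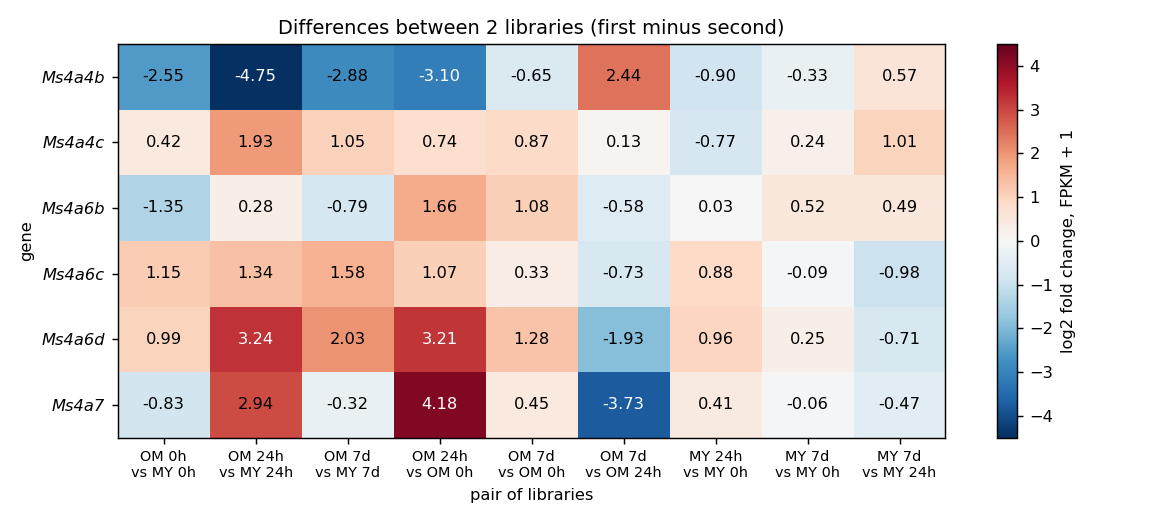
Log2 differences of the 6 Ms4a genes (FPKM + 1, library named on top minus the one below it) for the 9 pairs of libraries, with red for higher and blue for lower. The largest rise was Ms4a7 in OM 24h against OM 0h (4.18) and the largest deficit Ms4a4b in OM 24h against MY 24h (-4.75).

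The macrophage markers were themselves higher in OM 24h. All 7 (Csf1r, Mertk, Fcgr1, Cd68, C1qa, C1qb and C1qc) rose at least 2-fold from OM 0h to OM 24h, by 1.67 to 3.00 with a median of 2.66 on the log2 scale. Ms4a6d at 3.21 and Ms4a7 at 4.18 exceeded each of the 7, whereas Ms4a6c at 1.07, Ms4a6b at 1.66 and Ms4a4c at 0.74 were below all of them. Divided by the geometric mean of the 7, an alternative added after the data were seen, Ms4a7 was still higher in OM 24h than in OM 0h by 1.82 and Ms4a6d by 0.81, while Ms4a6b, Ms4a6c and Ms4a4c came to -0.74, -1.36 and -1.65. In MY 24h against MY 0h the 7 markers ranged from 0.48 to 1.46, with 5 of 7 past 2-fold. Ms4a7 at 0.41 lay below all of them, as did Ms4a6b at 0.03, Ms4a4c at -0.77 and Ms4a4b at -0.90. At OM 7d against OM 0h, 0 of the 7 changed by 2-fold, with a range from -0.97 to 0.93, and Ms4a6b at 1.08 and Ms4a6d at 1.28 exceeded all of them. Of the 7 resident macrophage markers, 6 were at least 2-fold lower in OM 7d than in OM 0h, while Gas6 was higher by 2.36. The part of the macrophage share of the sorted cells in these values was not tested.

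Ms4a6d kept a near constant ratio to Fcgr1, the high-affinity IgG receptor, between 2.88 and 3.91 in the 6 libraries, while Ms4a6d spanned 20.0-fold. Its ratio to Csf1r, the receptor for the macrophage growth factor, ran from 0.0709 to 0.570. Fcgr1 belongs to the 7 macrophage markers and had the largest rise of them in OM 24h. It was also the gene with the profile most similar to Ms4a6d in these libraries (below), so the steady ratio is no separate result. Ms4a7 was set beside Csf1r and C1qb only and followed neither as closely, with ratios from 0.0657 to 0.306 and from 0.0120 to 0.0423. Ratios of Ms4a6d and Ms4a7 to the other macrophage markers were not computed.

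**Figure D3:**
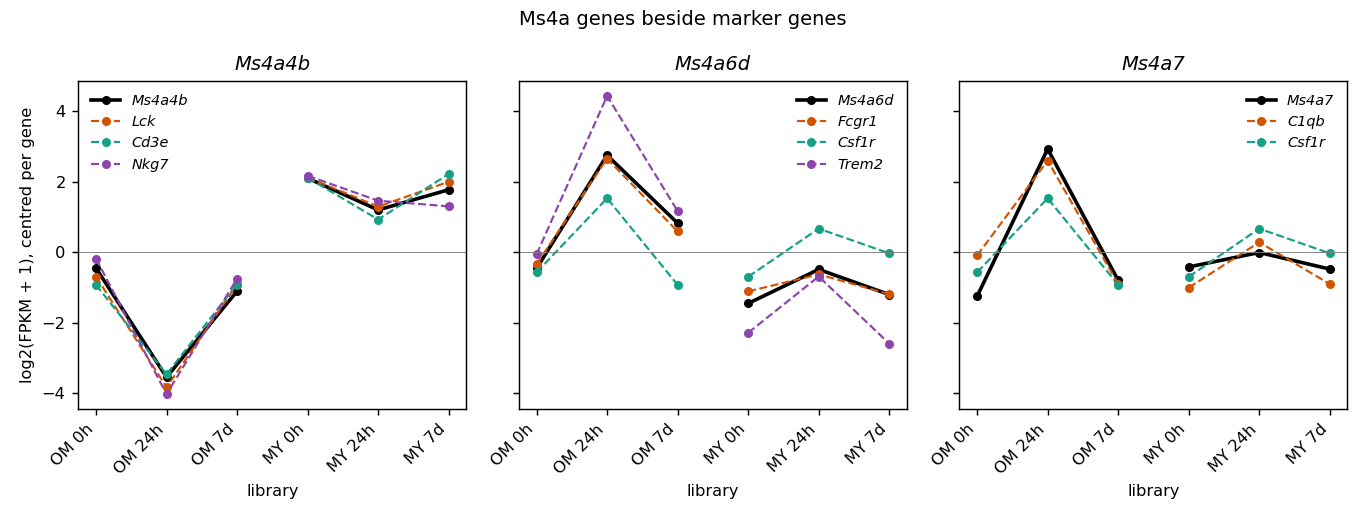
Ms4a4b, Ms4a6d and Ms4a7 (black) beside marker genes (dashed), as log2(FPKM + 1) centred for each gene over the 6 libraries. Ms4a4b lay close to Lck in every library and Ms4a6d close to Fcgr1.

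The 3 genes with the most similar profile to each Ms4a gene were taken from the 7998 genes with at least 10 FPKM in at least 1 library, by the root mean square (RMS) difference of centred log2(FPKM + 1) values over the 6 libraries. Ms4a4b was nearest to Lck (0.198), Zap70 (0.232) and Ctsw (0.245), genes of T cell receptor signalling and cytotoxic lymphocytes. Ms4a6d was nearest to Fcgr1 (0.189), Fcgr4 (0.299) and Perp (0.299), the former pair being activating Fc receptors for IgG. Ms4a7 was nearest to Lgmn (0.382), Abcc3 (0.423) and Cx3cr1 (0.445), of which Lgmn encodes a lysosomal protease and Cx3cr1 the fractalkine receptor. Ms4a4c was nearest to Tspan5 (0.167), Ms4a6b to Hid1 (0.200) and Ms4a6c to B430306N03Rik (0.151). Without OM 24h, Lck stayed at place 1 for Ms4a4b. Fcgr1, Fcgr4 and Perp came to places 14, 61 and 35 for Ms4a6d, and Lgmn, Abcc3 and Cx3cr1 to places 134, 3022 and 3108 for Ms4a7. Tspan5, Hid1 and B430306N03Rik came to places 6, 6 and 12. The places thus depended on OM 24h, while the RMS differences changed little, to 0.202, 0.326 and 0.295 for Ms4a6d. For Ms4a7 they came to 0.439 for Abcc3 and 0.444 for Cx3cr1, and Lgmn came closer, to 0.172.

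Sequence and profile did not rank the 15 pairs of Ms4a genes alike. Ms4a4b and Ms4a4c had the most similar coding sequences, with 91.8% identity, and the most similar upstream windows of the 10 pairs that had both, with 68.8%, yet their profiles were 12th closest, at an RMS difference of 2.53. The closest profiles were those of Ms4a4c and Ms4a6c (0.673), at 50.9% coding identity, and of Ms4a6c and Ms4a6d (0.728), at 67.3%. Ms4a6b and Ms4a6d had 80.2% identity and an RMS difference of 1.48, and Ms4a6b and Ms4a6c 74.6% and 1.10. The most distant profiles were those of Ms4a4b and Ms4a6d (3.36). This order changed without OM 24h, where Ms4a6c and Ms4a6d (0.333) and Ms4a6b and Ms4a7 (0.388, from 1.17) were closest, Ms4a4c and Ms4a6c came to 0.694 and Ms4a4b and Ms4a6d to 2.01. Ms4a4b and Ms4a4c were then at 1.79. The same 75 bases, the length of a read, occurred in transcripts of Ms4a4b and Ms4a4c in 3.54% and 2.91% of their windows, so reads from those stretches could be counted for either gene, and the other shares were 1.24% or lower.

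**Figure D4:**
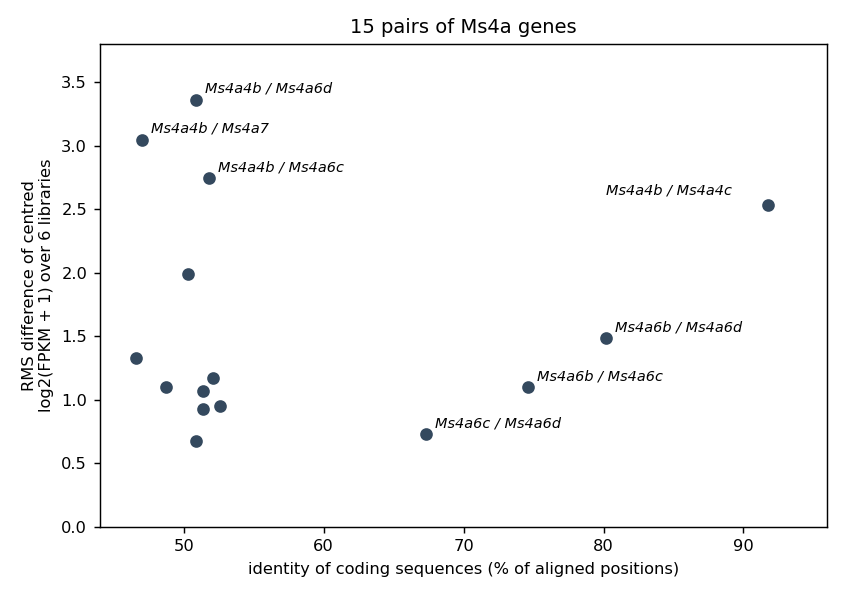
Each of the 15 pairs of Ms4a genes by identity of coding sequence (% of aligned positions) and by RMS difference of their profiles (centred log2(FPKM + 1), 6 libraries), with selected pairs named. The pair with the highest identity, Ms4a4b and Ms4a4c at 91.8%, lay at 2.53.

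Across the rest of the family the cluster held other patterns. Ms4a1 (CD20) measured 882.9, 158.3 and 500.7 FPKM in OM 0h, 24h and 7d and 88.8, 47.1 and 218.6 in MY, and the 6 B cell markers were likewise all down at least 2-fold by OM 24h. Ms4a8a, known from alternatively activated macrophages, was at 19.4, 47.1 and 9.07 in OM and 4.44, 15.9 and 5.03 in MY, so that 24h was highest in both tissues. Ms4a3, a gene of granulocyte and monocyte progenitors, was at 9.35, 8.68 and 26.6 in OM and 0.300 in MY 0h and was listed at 0 in MY 24h and MY 7d. The IgE receptor gene Ms4a2 reached no more than 0.457 FPKM. Of the 14 other genes looked up, 12 had a row and 6 were expressed, among them the more distant Tmem176a and Tmem176b, of which Tmem176b measured 585.3, 1424 and 542.0 FPKM in OM.

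**Figure D5:**
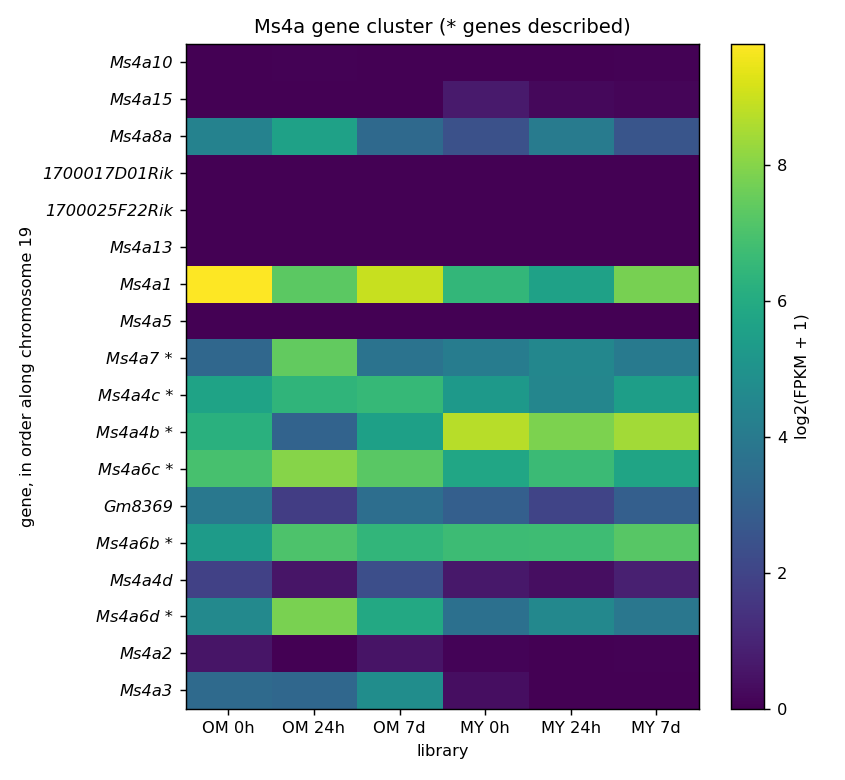
Log2(FPKM + 1) of the 18 genes with values in the Ms4a cluster, in order along chromosome 19 (rows), in the 6 libraries (columns), with the 6 genes described here starred. In OM 24h the starred genes other than Ms4a4b are bright while Ms4a4b and Gm8369, which lies between Ms4a6c and Ms4a6b, are dark.

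Genes whose products are known to act beside MS4A proteins were looked at as a list of 5. Clec7a, the beta-glucan receptor dectin-1 that MS4A4A partners in macrophages, measured 55.4, 213.6 and 82.0 FPKM in OM and 14.0, 17.8 and 17.5 in MY. Trem2, a lipid receptor of macrophages, was at 7.50, 190.6 and 18.9 in OM and 0.813, 4.49 and 0.467 in MY, and its log2 rise in OM 24h, 4.49, was above the 4.18 of Ms4a7. Tyrobp, the signalling adaptor of Trem2, reached 2352 FPKM in OM 24h from 980.2 in OM 0h. Vsig4, a complement receptor that interacts with Ms4a6d, was at 27.8, 37.2 and 1.53 in OM, at 0.0374 in MY 0h and listed at 0 in MY 24h and MY 7d. Its log2 change in the omentum was 0.41 by 24h and -3.51 by 7d, against 3.21 and 1.28 for Ms4a6d. Tnfrsf18, the T cell receptor GITR that Ms4a4b associates with, was at 44.1, 14.8 and 55.1 in OM and 88.7, 86.5 and 85.9 in MY.

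Taking the 6 together by FPKM, which is scaled by transcript length, the sum was 318.6, 881.8 and 451.3 in OM 0h, 24h and 7d and 655.2, 505.8 and 618.6 in MY. Ms4a4b made up 22.8%, 0.862% and 10.1% of it in OM and 65.8%, 45.5% and 55.5% in MY. Ms4a6c was the largest part of the omental sum, at 38.7%, 29.4% and 34.5%. Ms4a6d and Ms4a7 rose from 7.37% and 2.72% in OM 0h to 25.6% and 19.8% in OM 24h. Both thus made up more of the sum in OM 24h than in any other library, and Ms4a4b was the main part in all 3 mesenteric libraries.

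The type I interferon list of 10 genes moved differently in the tissues, 8 rising at least 2-fold by OM 24h and 7 by OM 7d, while in MY 0 were higher at either time. Of the Ms4a genes, Ms4a4c, a gene known to respond to interferon, was at 0.74 and 0.87 in the omentum and -0.77 and 0.24 in the mesentery in the same comparisons, under 2-fold in each. The part of interferon in its values was not tested.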

How the data were processed

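RNA of cells sorted from 6 pools was sequenced, with 1 library per condition, so samples were grouped by tissue and time and no test was run. Per the labels and the study's methods the authors checked reads with FastQC 0.11.4, aligned them with STAR 2.4.2a to mm9, with gene models from UCSC, and deposited FPKM computed with Cufflinks. FPKM are not counts and carry no interval, and relative depth, estimated from low values, was 0.856 to 1.49 times that of MY 0h. Differences are of log2(FPKM + 1), with 2-fold counted, over the 13064 genes that reached an FPKM of 1 in any library. Named were all Ms4a genes, list genes and, per Ms4a gene, the 3 with the smallest RMS difference. Coding sequences were aligned with Biopython 1.88, and values were computed with Python 3.11.15, numpy 2.4.6 and pandas 2.3.3 and drawn with matplotlib 3.10.9. The counting was tested on simulated data, where 200 of 200 altered genes were found among 13064. Those changes were set well past 2-fold with little added noise, in genes with a mean of at least 10 FPKM. The simulation thus checked the code and says nothing about differences near 2-fold or about spread between replicates. The genes and lists were chosen with earlier results of these data known, and 1 planned macrophage marker is not reported here and was left out of its list. Other pseudocounts, folds and scalings were tried.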

Additional observations from a re-analysis of the deposited data

Results flagged for a closer look

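Differences in direction between the tissues were seen for 3 values, none of which could be tested with 1 library per condition. Ms4a4c at 24h against 0h was at 0.74 in the omentum and -0.77 in the mesentery, a difference of 1.51 on the log2 scale. Ms4a6c at 7d was at 0.33 and -0.09, a difference of 0.43, and Ms4a7 at 7d was at 0.45 and -0.06, a difference of 0.51. All of these changes were under 2-fold, and the difference itself was not tested.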

How the results depend on the processing

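No paired analysis was possible because the labels give no replicate numbers that could pair libraries. A fit of tissue and time over the 3 matched times, which would take times as replicates, was not run. All 216 log2 values recomputed with another pseudocount or library scaling stayed within 1.5-fold of the reported ones, and scaling to a sum of 1000000 moved the median of all genes to -0.17 in OM 24h against OM 0h. The counts of genes past 2-fold depended on the threshold and in part on scaling and pseudocount. With a sum of 1000000, the 5 in OM 24h against OM 0h became 4 and the 2 in OM 7d against OM 0h became 3. The 4 in OM 7d against MY 7d became 3 with that sum and with a pseudocount of 5. A pseudocount of 0.1 turned the 3 in OM 0h against MY 0h into 4. In OM 0h against MY 0h the 3 became 5 at 1.5-fold and 1 at 4-fold, and at 4-fold the 5 at 24h became 3 and the 4 at 7d became 2. In the omentum the 5 at 24h became 3 at 4-fold, and the 2 at 7d became 4 at 1.5-fold and 0 at 4-fold. In MY 24h against MY 0h the 0 became 1 with a pseudocount of 0.1, 1 with a sum of 1000000 and 4 at 1.5-fold, and from MY 24h to MY 7d the 1 became 0 with a pseudocount of 5, 3 at 1.5-fold and 0 at 4-fold. The 4 genes that did not overlap between tissues became 1 with a gap of 2-fold (4.85% of all genes), 3 with a sum of 1000000 (37.5%) and 6 without 24h (51.1%). Division by the macrophage markers, added after seeing the data, reversed Ms4a6c in OM 24h against MY 24h (-0.50) and OM 0h (-1.36), Ms4a6b in OM 24h against OM 0h (-0.74) and Ms4a6d from 24h to 7d in the omentum (0.95), all past 2-fold as reported. The sign also turned for 11 values under 2-fold, among them Ms4a4c in OM 24h against OM 0h (-1.65) and Ms4a6c (-0.28) and Ms4a6d (-0.15) in MY 24h against MY 0h. In all, 33 of 54 values moved by at least 1.5-fold. Leaving out a replicate was not possible. Low values, such as Ms4a4b in OM 24h, rest on the fewest reads, and FPKM give no counting error.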
